A study of Danio rerio with 17 samples.

Results

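The genes described here belong to the Fxr-Shp axis of bile acid control in the zebrafish liver, or encode transporters listed with it. A list of 7 genes was drawn up for this description, namely *nr1h4*, *nr0b2a*, *nr0b2b*, *oatx*, *abcb11a*, *abcb11b* and *abcc2*, and 5 of them were found among the 8513 entries of the count table. The other 2, *nr1h4*, which encodes the receptor Fxr itself, and *abcb11a*, are not among these entries and were not analysed here, so the axis is described from its repressors and transporters only. The 5 genes with values all passed the filter on low counts, as did 8412 entries in all. The list was chosen by the counts at 1 day post-cryoinjury (dpci) against sham, where *nr0b2b* was seen to rise and the transporters to fall, so that contrast and the return from 1 dpci are given as description with no test.

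Fxr is a nuclear receptor that binds bile acids. In mammals it switches on the gene of Shp, a small nuclear receptor that lacks a DNA-binding domain and represses other transcription factors, and Shp in turn lowers the expression of CYP7A1, the rate-limiting enzyme of bile acid synthesis. Zebrafish have paired Shp genes, *nr0b2a* and *nr0b2b*. Bile acids enter mammalian hepatocytes through carriers on the blood-facing side. They leave into the bile canaliculus through the bile salt export pump, the product of the gene that *abcb11b* corresponds to. ABCC2 (MRP2) exports conjugated organic anions, such as bilirubin glucuronide, across the same membrane, and mammalian Fxr raises the transcription of both exporters.

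Adult liver tissue of *Tg(fabp10a:NLS-mCherry)* zebrafish was compared by bulk RNA-seq in 17 samples. All groups carried this transgene, in which a hepatocyte promoter drives a nuclear red fluorescent protein. The injured fish were touched on the ventral lobe with a probe cooled in liquid nitrogen and sampled 1, 3 and 7 days later (4 samples at each time), and the 5 sham samples came from fish operated on with a probe that had not been cooled. The paper describes RNA-seq of the injured region of the ventral lobe and of the contralateral lobe. The sample titles name only liver and the group, so they do not state which region a sample holds. Levels are therefore not to be read as those of whole livers. Each sample was a pool of tissue from several livers, and the sources do not settle whether the samples of a group are independent pools. The paper's methods describe 3 replicates of 3 pooled livers, while a figure legend counts 4 technical replicates per time point. The errors and p-values thus measure only the spread between these samples.

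Totals of 4743533 to 6800961 counts per sample set the precision. Levels are given as scaled CPM, that is CPM (a count relative to its sample's total) after TMM scaling (edgeR's correction for a few abundant genes taking up a library), and are compared between samples of 1 gene and never between genes. A group was taken to be at the floor when none of its samples exceeded 3 counts, and this corresponds on average to 0.680 scaled CPM in sham and to 0.421, 0.480 and 0.503 scaled CPM at 1, 3 and 7 dpci. Floors cover counting error only. Folds given as at least a value are bounds against the floor, and they are given with TMM scaling only. With TMM scaling the median gene had a log2 fold change of -0.02 at 1 dpci against sham, whereas with column totals it had 0.84, so the value by column totals is given too where it ended a call, turned a direction, changed an overlap or moved a fold of the 5 genes by over 1.5 times. The 17 hepatocyte markers in the table summed to between 128773 and 230427 scaled CPM in sham, and to between 67073 and 76466 at 1 dpci, and by column totals to between 124131 and 140187 CPM in sham and between 86634 and 122989 at 1 dpci. Most of the single markers were lower at 1 dpci in the test of edgeR, at an adjusted p of at most 0.05. *apoa2* and *rbp4* were among these (log2 fold changes of -2.20 and -4.73, adjusted p-values of 0.00123 and 0.000356). Only *fgb* and *agt* passed as higher (0.94 and 2.60, adjusted p-values of 0.00948 and 0.000433). Marker sums of other tissues and cells went both ways at 1 dpci. Lower on average were 11 exocrine pancreas markers, at 477 to 5622 scaled CPM against 4764 to 37144 in sham, and 6 red blood cell markers, at 529 to 1001 against 1815 to 13676. Higher was the sum of 8 leukocyte markers, at 549 to 2493 against 129 to 476, but this rise came from *lect2l*. The other 7 leukocyte markers summed to 21.97 to 67.5 scaled CPM at 1 dpci, below the 125 to 462 in sham. In bulk tissue, fewer hepatocytes and less RNA per hepatocyte cannot be told apart, and the part of these differences in the results at 1 dpci was not tested.

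*nr0b2b*, one of the paired Shp genes, was almost absent in sham and present in every sample at 1 dpci. The 5 sham samples held 1, 0, 0, 0 and 0 counts. The 4 samples at 1 dpci held 275, 172, 38 and 37 counts, which correspond to 41.7, 30.2, 4.12 and 4.64 scaled CPM. Thus all 4 lay above all 5 sham samples, and replicates 1 and 2 stood well above replicates 3 and 4. Against the floor, the mean of 20.2 ± 18.8 scaled CPM (SD, n = 4) was at least 29.7-fold higher than sham, and at least 19.1-fold higher without replicate 1.

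By 3 dpci *nr0b2b* was detected in 1 sample of 4, with 39 counts in replicate 4 and 0 in replicates 1 to 3. At 7 dpci the counts were 25, 3, 0 and 0, so only replicate 1 lay clearly above the floor. The single positive sample at 3 dpci (4.61 scaled CPM) reached the level of the lower samples at 1 dpci, whereas by column totals it lay below them (6.25 CPM against 6.95 and above). At 7 dpci no sample reached the range of 1 dpci, the highest being 3.81 scaled CPM. Neither 3 dpci (adjusted p = 0.404) nor 7 dpci (adjusted p = 0.572) differed from sham by the quasi-likelihood test of edgeR (Benjamini-Hochberg adjustment over all genes tested). The fitted direction at 3 dpci rested on that 1 sample, since the log2 fold change turned from 4.31 to -1.61 without replicate 4.

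*nr0b2a*, the other Shp gene, moved the opposite way at 1 dpci. It measured 7.19, 26.6, 1.17, 10.3 and 11.1 scaled CPM in the 5 sham samples and 0.303, 1.58, 2.06 and 1.51 at 1 dpci. The mean was 8.27-fold lower at 1 dpci (5.46-fold without sham replicate 2, and 4.28-fold by column totals), yet the groups overlapped, because the lowest sham sample lay below 3 of the 4 samples at 1 dpci. At 3 dpci the values were 27.03, 8.68, 2.64 and 2.13 scaled CPM, all above 1 dpci, but by column totals the lowest of them, at 2.60 CPM, lay below the highest at 1 dpci, at 3.48 CPM. At 7 dpci they were 0.610, 17.6, 1.71 and 29.2, so that 2 samples were at the level of 1 dpci and 2 were within or above the sham range. With such a spread (12.3 ± 13.7, SD, n = 4, at 7 dpci against 11.3 ± 9.41, n = 5, in sham) the log2 fold changes against sham were -0.18 ± 0.94 (SE) at 3 dpci, with an adjusted p of 0.960, and 0.13 ± 0.93 at 7 dpci, with an adjusted p of 0.983.

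The plot of the 5 genes by sample shows the paired Shp genes moving in opposite directions at 1 dpci, and the transporters below or at the low end of sham.

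**Figure D1:**
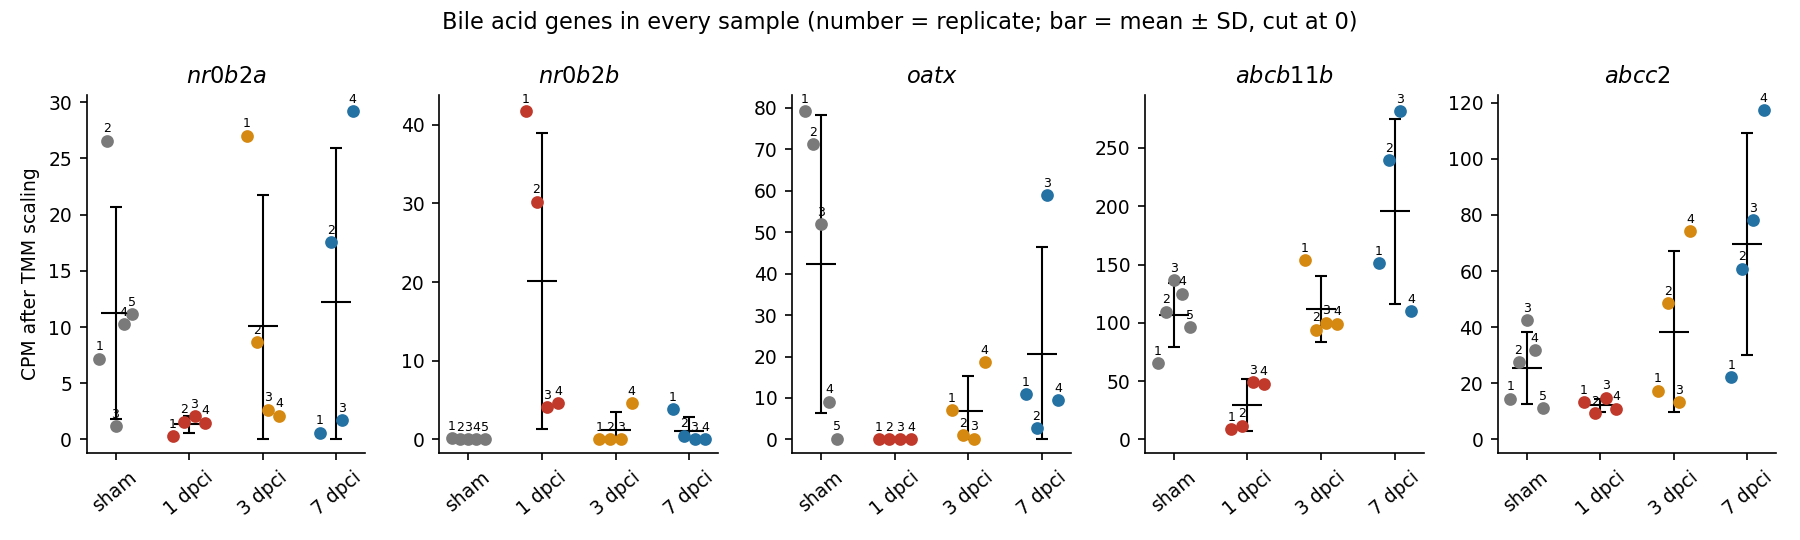
Level of each of the 5 measured genes (vertical axis, scaled CPM, a scale of its own for each gene) in each sample of sham, 1, 3 and 7 dpci (horizontal axis), with 1 numbered point per replicate and a bar for the group mean ± SD, drawn no lower than 0. The 4 samples of *nr0b2b* at 1 dpci lie between 4.12 and 41.7 and all 4 of *oatx* are at 0, while *abcb11b* and *abcc2* reach their highest means, 195 and 69.7, at 7 dpci.

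*oatx*, an organic anion transporter gene by its name, fell to 0 at 1 dpci. Whether its product carries bile acids was not tested. Its 4 samples at 1 dpci held 0 counts each. In sham it held 429, 313, 178, 40 and 1 counts, or 79.1, 71.1, 51.9, 9.12 and 0.203 scaled CPM. The groups did not overlap, but sham replicate 5 was itself at the floor, so that no fold can be given against that sample alone. Against the floor at 1 dpci, the sham mean of 42.3 ± 35.9 scaled CPM (SD, n = 5) makes the level at 1 dpci at least 100.4-fold lower. By column totals the sham mean was 30.5 CPM, so this bound changes with the scaling.

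Counts of *oatx* were again found at 3 dpci (34, 7, 1 and 158, the 1 count of replicate 3 being at the floor). They were found above the floor in every sample at 7 dpci (72, 17, 276 and 68). The mean was at least 16.0-fold higher at 3 dpci and at least 48.9-fold higher at 7 dpci than at 1 dpci. A single sample carried much of each value, since these bounds were 6.59-fold without replicate 4 at 3 dpci and 18.5-fold without replicate 3 at 7 dpci. Both later times remained below sham on average, at 6.75 ± 8.54 and 20.6 ± 25.8 scaled CPM (SD, n = 4 each). Their log2 fold changes against sham were -2.63 ± 1.298 (SE, adjusted p = 0.448) and -1.05 ± 1.21 (adjusted p = 0.826), and neither passed the test. The difference between 7 and 3 dpci, 1.58 ± 1.29 on the log2 scale, did not pass either (adjusted p = 0.853).

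*abcb11b*, the bile salt export pump gene, fell less far than *oatx* and was detected throughout. In sham it measured 65.5, 110, 136, 125 and 96.3 scaled CPM. At 1 dpci it measured 8.80, 11.95, 49.1 and 47.7, all below every sham sample. The mean was 3.62-fold lower, with a log2 fold change of -1.85 ± 0.48 (SE). By column totals the mean was 1.77-fold lower (log2 fold change -0.82) and the groups overlapped, with 11.4 to 82.9 CPM at 1 dpci against 56.1 to 98.9 CPM in sham.

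At 3 dpci *abcb11b* stood at 154, 94.2, 100.1 and 99.3 scaled CPM, within or just above the sham range. At 7 dpci 3 of the 4 samples, at 151, 240 and 282, lay above every sham sample and the fourth was at 110. These levels were 3.80-fold and 6.65-fold above 1 dpci with no overlap, and by column totals 2.52-fold and 3.97-fold, also with no overlap. Against sham, the log2 fold change was 0.07 ± 0.45 (SE) at 3 dpci, with an adjusted p of 0.969. At 7 dpci it was 0.88 ± 0.45, with an adjusted p of 0.580, so the rise above sham did not pass the test.

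*abcc2* changed least at 1 dpci and stood highest at 7 dpci. It measured 14.6, 27.5, 42.6, 31.9 and 11.1 scaled CPM in sham and 13.3, 9.32, 14.9 and 10.9 at 1 dpci. The 1 dpci samples therefore sat at the low end of sham and overlapped it, and the log2 fold change of -1.07 ± 0.54 (SE) became -0.06 with column totals. The samples measured 17.4, 48.6, 13.3 and 74.2 at 3 dpci and 22.3, 60.9, 78.2 and 117 at 7 dpci, where 3 of the 4 exceeded every sham sample. The mean at 7 dpci was 5.75-fold that at 1 dpci with no overlap, whereas by column totals it was 3.83-fold and the groups overlapped, with 24.5 CPM in the lowest sample at 7 dpci and 25.1 CPM in the highest at 1 dpci. Against sham its log2 fold change was 1.45 ± 0.52 (SE) at 7 dpci, which gave an adjusted p of 0.516, and 0.59 ± 0.52 at 3 dpci, with an adjusted p of 0.711. Between 3 and 7 dpci it was 0.86 ± 0.55, with an adjusted p of 0.793.

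Counted together with TMM scaling, 3 of the 5 genes did not overlap between 1 dpci and sham, 1 higher and 2 lower, beside 23.2% of all genes tested (10.9% higher and 12.2% lower). Against 1 dpci, 3 of the 5 did not overlap at 3 dpci, beside 24.4% of all genes, and 4 of the 5 at 7 dpci, beside 25.9%. Nothing is read from these counts, since the genes were listed for the values at 1 dpci. At 3 dpci 0 of the 5 were called against sham by edgeR at an adjusted p of at most 0.05, beside 0.0119% of all genes, and 0 of the 5 did not overlap, beside 4.16%. At 7 dpci 0 of the 5 were called, beside 0% of all genes, and again 0 did not overlap, beside 1.3%. Between 7 and 3 dpci 0 of the 5 were called, beside 0%, and 0 did not overlap, beside 3.26%. At an unadjusted p of at most 0.05, edgeR gave 1 gene at 3 dpci (*nr0b2b*, beside 11.8% of all genes), 1 at 7 dpci (*abcc2*, beside 9.08%) and 0 between these times (beside 7.36%), and DESeq2 called 0 in each of the 3 comparisons after adjustment. The comparisons with sham share the 5 sham samples with the contrast the genes were listed for, whereas 7 against 3 dpci shares none.

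Within 1 dpci the samples formed neighbouring pairs, and *nr0b2b* and *abcb11b* differed between them. Replicates 1 and 2 carry the library numbers 17 and 18, and replicates 3 and 4 carry 21 and 22. *nr0b2b* averaged 36.0 scaled CPM in the first pair and 4.38 in the second (8.21-fold), while *abcb11b* averaged 10.4 and 48.4 (4.67-fold lower in the first). Thus the samples with the most *nr0b2b* had the least *abcb11b*. *oatx* was at 0 in both pairs, *nr0b2a* averaged 0.943 and 1.78, and *abcc2* averaged 11.3 and 12.9.

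Some other transporter genes of the lists differed between the pairs, in both directions, and others hardly did. The genes given here were named after their values were seen. *slco1d1*, an organic anion carrier gene, averaged 47.7 scaled CPM in libraries 17 and 18 and 182 in libraries 21 and 22, and *slc51a*, which encodes a subunit of the basolateral bile acid exporter Ost, averaged 169 and 345. *abcb4*, named after the mammalian phospholipid flippase gene of the canaliculus, went the other way, with 31.6 against 7.70. *slc47a1*, a multidrug and toxin extrusion carrier gene, was also higher in libraries 17 and 18, with 2.49 against 0.117. The second average lies below the floor at 1 dpci (0.421 scaled CPM on average), so no fold is given. *slco2a1* (35.4 and 38.2) and *slco2b1* (3.38 and 3.36) hardly differed. Over all genes, 179 of 8012 genes with a mean of at least 1 scaled CPM at 1 dpci (2.23%) were 4-fold or more higher in libraries 17 and 18 and 251 (3.13%) in libraries 21 and 22. Among *abcb4*, *slco1d1* and *slc51a*, only the first reached 4-fold (4.10-fold, against 3.82-fold and 2.04-fold). The share of all genes at the lower folds was not worked out.

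Among the markers of other cells, *lect2l*, a gene of the leukocyte list, followed the same split, with 1976.2 and 2471.4 scaled CPM in libraries 17 and 18 and 498 in each of the other 2, against 3.88 to 21.9 in sham. The other 7 leukocyte markers in the table summed to only 21.97 to 67.5 scaled CPM at 1 dpci, below the sham range of 125 to 462. Most of that sum in sham was *cd74a* (181 scaled CPM on average, and 5.82 at 1 dpci), while the macrophage gene *mfap4* rose from 3.14 to 14.2 (adjusted p = 0.0195). The part of leukocytes in the level of *nr0b2b* was not tested. The libraries of a pair were the closest of any within a group (chi-square over degrees of freedom of 10.1 and 21.03 between their counts, against 71.8 to 99.1 across the pairs). This is above counting noise, so they were not merged, but it does not show that they are independent pools.

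**Figure D2:**
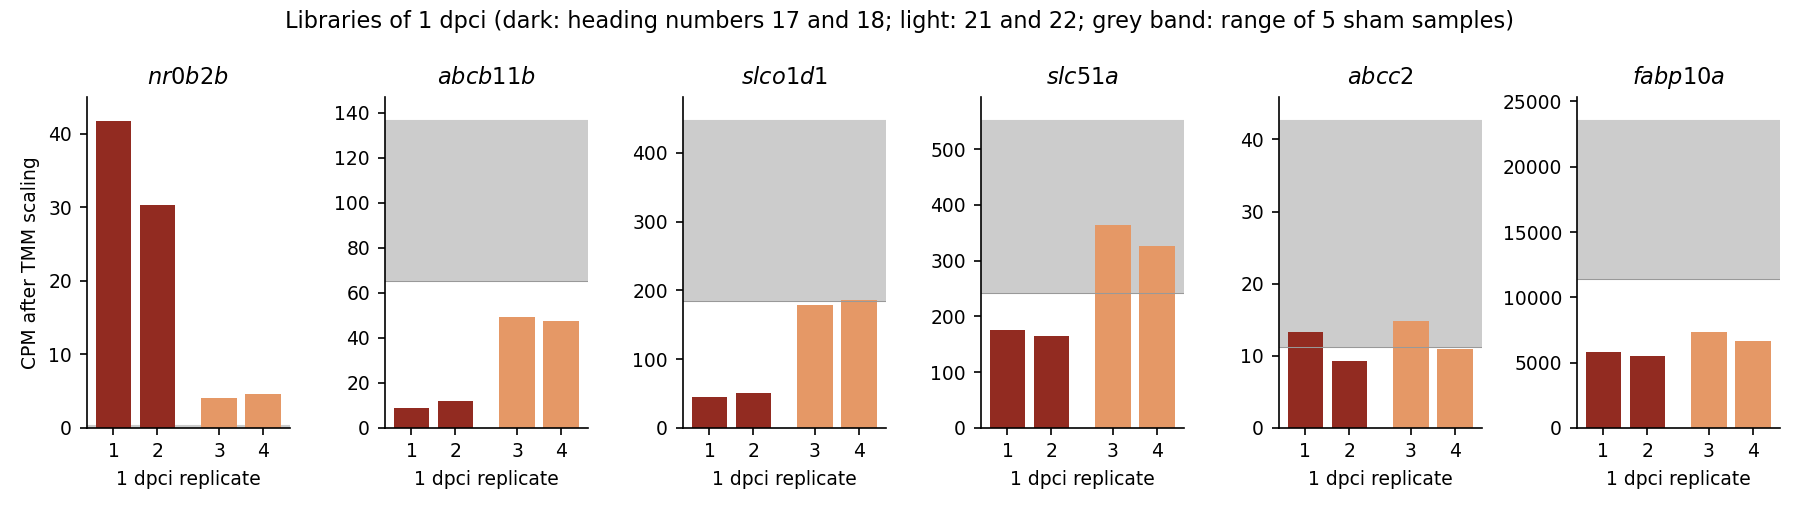
Level of *nr0b2b*, *abcb11b*, *slco1d1*, *slc51a*, *abcc2* and *fabp10a* (vertical axis, scaled CPM) in the 4 replicates at 1 dpci (horizontal axis), with 1 bar per library, dark for libraries 17 and 18 and light for 21 and 22, over a grey band for the range of the 5 sham samples. *nr0b2b* lies higher in libraries 17 and 18 (mean 36.0) than in 21 and 22 (mean 4.38), and *abcb11b* lies lower (10.4 against 48.4).

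Outside 1 dpci, the few samples with *nr0b2b* differed in their transporter levels. Replicate 4 at 3 dpci, the only sample of that time with *nr0b2b*, had the highest *oatx* level of its group (18.7 scaled CPM) and the highest *abcc2* level (74.2). Replicate 1 at 7 dpci, with 3.81 scaled CPM of *nr0b2b*, had 10.98 of *oatx* and 151 of *abcb11b*, both above another sample of its group, but the lowest *abcc2* level (22.3). Replicate 2 at 7 dpci, with 3 counts of *nr0b2b*, had the lowest *oatx* level of its group (2.79) but more *abcb11b* (240) than replicate 1. Sham replicate 1, with 1 count, had the lowest *abcb11b* level of sham (65.5) but the highest *oatx* level (79.1). Counts of 3 and 1 do not exceed the floor of 3 counts, so *nr0b2b* is not taken as present in these samples. The rise of *nr0b2b* and the fall of *oatx* and *abcb11b* coincided at 1 dpci, and the relation within a time point rests on few samples and was not tested.

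*cyp7a1*, the gene of the rate-limiting enzyme that Shp represses in mammals, was low at 1 dpci together with *nr0b2a*. It measured 0.553, 5.45, 2.91, 2.96 and 4.05 scaled CPM in sham, and 0.910, 0, 0 and 0 at 1 dpci (log2 fold change -3.78, adjusted p = 0.128). At 3 dpci it measured 63.3, 0.44, 1.81 and 4.38 scaled CPM, and at 7 dpci 0.31, 18.1, 1.496 and 63.7. In sham, at 3 dpci and at 7 dpci, the sample with the highest *nr0b2a* level was also the one with the highest *cyp7a1* level, and at 1 dpci it was not.

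The same samples carried the most RNA of intestinal and of exocrine pancreas genes. The 9 of 13 intestine markers in the table summed to 1980 scaled CPM in replicate 2 of sham (1898 in replicate 4), to 3345 in replicate 1 at 3 dpci and to 2451 in replicate 4 at 7 dpci. The other samples of these groups lay between 371 and 1898, and the samples at 1 dpci lay between 79 and 359. The 11 exocrine pancreas markers summed to 37144, 7167 and 39204 in the same 3 samples, each the highest of its group. In mammals Shp is also expressed in the intestine. The part of intestinal or pancreatic tissue in the levels of *nr0b2a* and *cyp7a1* was not tested.

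**Figure D3:**
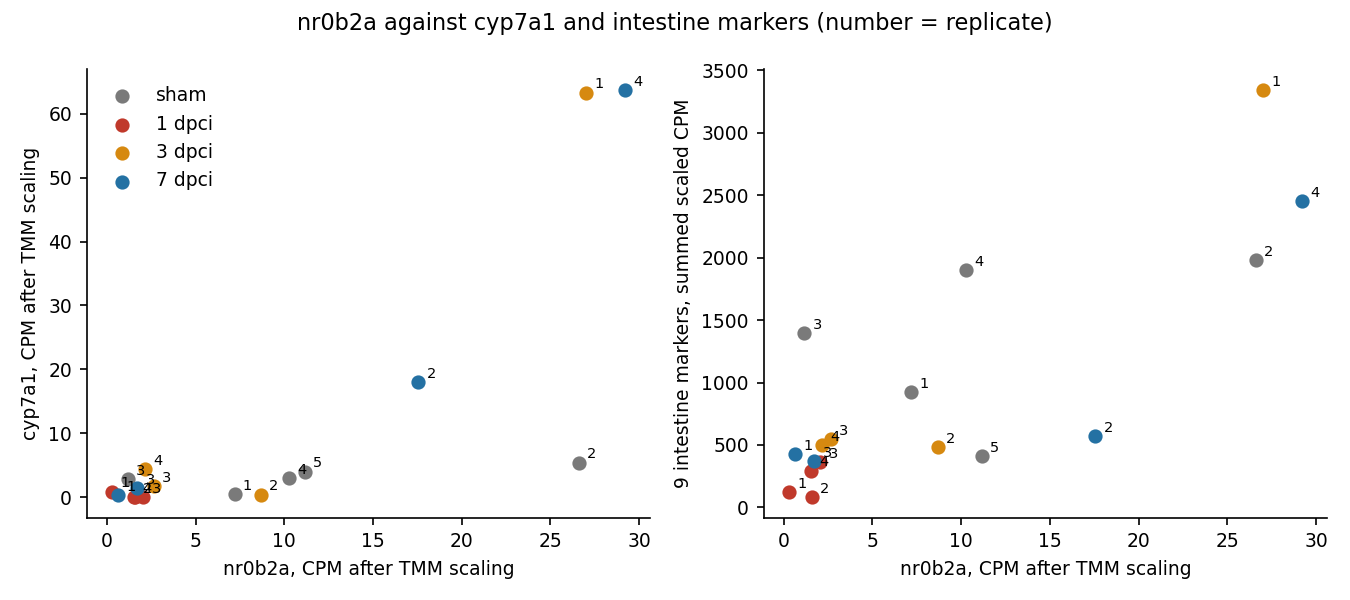
*nr0b2a* (horizontal axes) against *cyp7a1* (left, vertical axis) and against the sum of 9 intestine markers (right, vertical axis) in the 17 samples, all in scaled CPM, with 1 numbered point per replicate coloured by group. The samples with 27.03 and 29.2 scaled CPM of *nr0b2a*, at 3 and 7 dpci, have 63.3 and 63.7 of *cyp7a1*, and the samples at 1 dpci lie low on all axes.

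The wider pathway was followed with 6 lists of bile acid genes, the 7 genes above left out. Of 231 listed genes, 108 were in the table and 106 were tested. *slc10a1*, the sodium-dependent uptake carrier, and *hnf4a* are not among the entries and were not analysed here. At 1 dpci against sham, 24 of the 106 fell (22.6%, beside 14.5% of all genes), 8 rose (7.55%, beside 9.43%) and 74 did not pass the test. The median log2 fold change over the lists was -0.56, beside -0.02 over all genes. With column totals 15 fell and 23 rose. All 24 were below sham in the fit by column totals too, 15 of them called, and all 8 that rose were called again. Of the genes named below as lower, *acaa1*, *hsd17b4*, *hnf4g*, *rxrga*, *slc47a2.1* and *fabp10a* were not called by column totals.

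Synthesis of bile acids and bile alcohols was the first of the lists in which many genes fell. There 10 of 20 fell (50%, beside 14.5% of all genes) and 0 rose (beside 9.43%), with a median log2 fold change of -1.99. Of the 10, *acaa1* and *hsd17b4*, named after their values were seen, were not called by column totals (adjusted p-values of 0.177 and 0.0911). *hsd11b1la* of this list, named after its values were seen, averaged 8.97 scaled CPM in sham and 37.3 at 1 dpci. Its groups did not overlap, but edgeR did not call it (adjusted p = 0.115). By column totals *hsd11b1la* and *scp2b* were called higher (adjusted p-values of 0.0218 and 0.0176). A fall was not particular to the lists, since most of the 17 hepatocyte markers passed as lower too. *cyp39a1*, which encodes an oxysterol 7-alpha-hydroxylase, went from 12.2, 24.8, 29.7, 20.1 and 6.08 scaled CPM in sham to 0, 0.176, 0.108 and 0, at least 44.1-fold lower (adjusted p = 0.00252). *slc27a2a*, whose mammalian counterpart is a very long chain acyl-CoA synthetase, fell by 3.18 on the log2 scale (adjusted p = 0.00249), and *hsd11b2*, a steroid dehydrogenase gene, fell by 2.88 (adjusted p = 0.0178). *cyp8b1*, the sterol 12-alpha-hydroxylase gene, named after its values were seen, averaged 45.8 scaled CPM in sham and 22.9 at 1 dpci. It did not pass in edgeR (adjusted p = 0.0616) but was called by DESeq2.

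Conjugation and binding was the second such list, with 9 of 17 genes lower (52.9%, beside 14.5% of all genes) and 1 higher (5.88%, beside 9.43%). By column totals edgeR called only *sult1st6*, *ugt5b1*, *ugt5b2*, *ugt5b4* and *akr7a3* of this list lower. It called *ugt5a2* higher there (adjusted p = 0.0157), beside the gene that rose with TMM scaling. *akr7a3* and *ugt5a2* were named after their values were seen. The median log2 fold change of this list was -2.17. The genes that fell most were *ugt5b4*, *ugt5b1* and *ugt5b2*, of the glucuronosyltransferase family, with log2 fold changes of -3.29, -3.27 and -3.20, and *sult1st6*, a sulfotransferase gene, with -2.74. These families have closely similar copies, and how reads that match several copies were counted is not stated. *cyp3c1*, of the cytochrome P450 3 family, was the gene that rose, from a mean of 139 to 383 scaled CPM (log2 fold change 1.46 ± 0.40, SE, adjusted p = 0.0159). *fabp10a*, the liver bile acid-binding protein gene whose promoter drives the transgene, averaged 18970 scaled CPM in sham and 6325 at 1 dpci (log2 fold change -1.58, adjusted p = 0.024), and by column totals its log2 fold change was -0.62 with an adjusted p of 0.196.

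Carriers did not move in 1 direction as lists. Of 10 tested genes listed as basolateral carriers, edgeR called 0 lower (beside 14.5% of all genes) and 2 higher (20%, beside 9.43%). In that fit 5 of the 10 had a log2 fold change below 0. DESeq2 also called *slco1d1* and *slco1f4*, both lower on average at 1 dpci. *slco1f4* averaged 4.09 scaled CPM in sham and 0.242 at 1 dpci. The median log2 fold change of this list was 0.02. *slc10a4*, a relative of the sodium-dependent bile acid carriers, went from 4.24 to 7.75 scaled CPM in sham to 36.1, 37.3, 16.4 and 17.1 at 1 dpci, a log2 fold change of 2.18 ± 0.33 (SE, adjusted p = 0.000353), and *slc10a7* rose by 1.19 (adjusted p = 0.0290). These 2 genes carry the name of the *slc10* family, and whether they transport bile acids was not tested. *slc51a* averaged 371 and 257 scaled CPM (adjusted p = 0.358, with the direction turned by column totals to a log2 fold change of 0.44). *slco1d1* averaged 312 and 115 (adjusted p = 0.0531), and neither passed the test of edgeR.

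Of 24 genes of canalicular export and bile flow, 3 fell (12.5%, beside 14.5% of all genes) and 3 rose (12.5%, beside 9.43%). With TMM scaling these shares were near those of all genes, and the median log2 fold change was 0.13. By column totals edgeR also called *tmem30aa*, *myo5b*, *ezra*, *ezrb*, *tjp2b*, *vps33b* and *vipas39* higher (adjusted p-values of 0.00514 to 0.0320). These genes were named after their values were seen, and no share of all genes is given for that scaling. *slc47a1*, a multidrug and toxin extrusion carrier gene, went from 4.08 to 19.0 scaled CPM in sham to 1.82, 3.16, 0.108 and 0.126 (log2 fold change -3.09 ± 0.75, SE, adjusted p = 0.00816). *slc47a2.1*, of the same family, fell by 3.52 (adjusted p = 0.0379, and 0.0753 by column totals). *pdzk1*, which encodes a scaffold protein of apical membranes, was at 0 in all 4 samples at 1 dpci and at 0 in some sham samples as well (at least 10.6-fold lower, adjusted p = 0.0295). Its groups overlapped, and 1 sham sample held 76 of the 101 sham counts, so this bound rests mostly on that sample. The sham median of *pdzk1*, 0.553 scaled CPM, was below the average sham floor of 0.680. Those that rose were *tmem30ab*, of the family of flippase partner subunits (8.30 to 37.1 scaled CPM on average, log2 fold change 2.15 ± 0.43), *tjp2a*, a tight junction protein gene (3.49 to 12.5, 1.83 ± 0.38), and *rab11ba*, of the recycling endosome GTPase family (0.88 ± 0.20), with adjusted p-values of 0.00225, 0.00287 and 0.00475. The 5 bile duct markers in the table summed to 316 to 479 scaled CPM in sham and to 210 to 714 at 1 dpci, and their part in these levels was not tested.

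Of 32 nuclear receptors and partners, 2 fell (6.25%, beside 14.5% of all genes) and 1 rose (3.125%, beside 9.43%). The median log2 fold change of this list was -0.23. *hnf4g*, a nuclear receptor gene related to *hnf4a*, fell from a mean of 14.2 to 3.99 scaled CPM (log2 fold change -1.82 ± 0.43, SE, adjusted p = 0.00749, and 0.117 by column totals), and *rxrga*, one of the retinoid X receptor genes whose products pair with Fxr, fell by 1.71 (adjusted p = 0.0216, and 0.182 by column totals). *nr1h5*, which encodes the second Fxr-type receptor of vertebrates, rose from 13.6, 34.5, 36.4, 35.3 and 37.7 scaled CPM to 47.6, 63.8, 65.6 and 64.7, with no overlap (log2 fold change 0.94 ± 0.30, SE, adjusted p = 0.0302). *rxraa* (16.9 and 7.10 scaled CPM on average, adjusted p = 0.136) and *nr5a2*, the liver receptor homologue that Shp represses in mammals (109 and 70.2, adjusted p = 0.148), did not pass, and by column totals *nr5a2* had a log2 fold change of 0.20, in the other direction.

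Among the 3 genes of Fgf19 signalling, the hormone route by which the intestine lowers bile acid synthesis in mammals, *klb* rose. This gene of the co-receptor beta-klotho measured 0.184, 1.36, 0, 0 and 0 scaled CPM in sham and 6.67, 8.26, 11.9 and 9.29 at 1 dpci (log2 fold change 4.77 ± 1.29, SE, adjusted p = 0.0149). *fgf19* itself averaged 1.61 and 0.258 scaled CPM (adjusted p = 0.301).

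**Figure D4:**
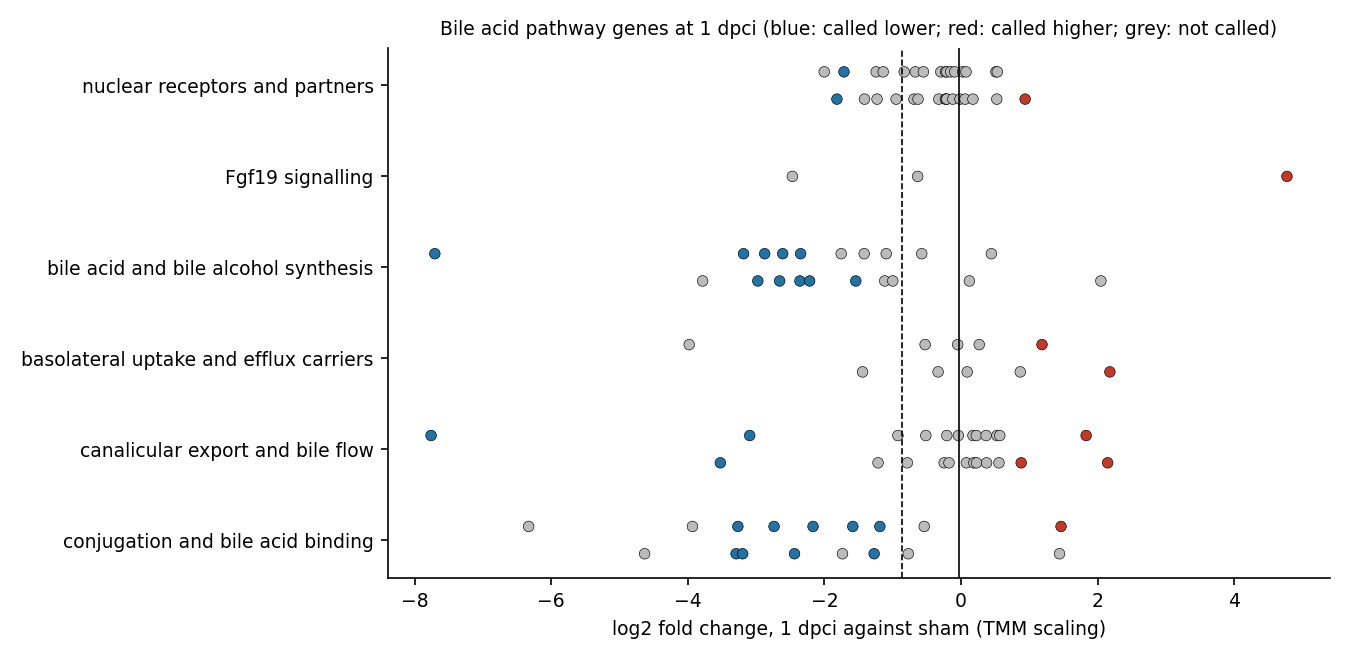
Log2 fold change at 1 dpci against sham (horizontal axis) of the 106 tested genes in the 6 bile acid lists (vertical axis), with 1 point per gene coloured where it passed an adjusted p of 0.05 (blue lower, red higher) and grey where it did not. The solid line is the median of all genes, and genes near the dashed line show about no change by column totals. With TMM scaling, 10 of 20 genes in the synthesis list lie lower and pass, and 9 of 17 in the conjugation and binding list, beside 14.5% of all genes. By column totals fewer of each list pass as lower.

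At 3 dpci edgeR called 0 of the 106 pathway genes against sham, while 11 had an unadjusted p of at most 0.05 (7 lower and 4 higher, 10.4% beside 11.8% of all genes). DESeq2 called 2, *cyp46a1.3* and *scp2a*. The share of all genes that DESeq2 called is not given, so nothing is read from its count. The genes with the smallest p were *scp2a*, a sterol carrier protein gene (log2 fold change -0.93 ± 0.25, SE, adjusted p = 0.169), *cyp46a1.3*, of the cholesterol 24-hydroxylase family (-1.77 ± 0.50, adjusted p = 0.174), and *slc27a6*, of the fatty acid transport protein family (-1.34 ± 0.45, adjusted p = 0.246). *scp2a* measured 559 to 1196 scaled CPM in sham and 607, 536, 505 and 371 at 3 dpci, and without sham replicate 5, the lowest, its log2 fold change was -1.07 with an adjusted p of 0.0441.

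At 7 dpci edgeR called 0 of the 106, with 13 at an unadjusted p of at most 0.05 (6 lower and 7 higher, 12.3% beside 9.08% of all genes), and DESeq2 called 0. *scp2a* was still lower on average (-0.79 ± 0.25, SE), as were the sulfotransferase genes *sult1st1* (-1.89) and *sult2st2* (-1.03), each with an adjusted p of 0.516. Between 7 and 3 dpci both tools called 0 of the 106, and 6 had an unadjusted p of at most 0.05 in edgeR (5.66% beside 7.36% of all genes). *fgf19*, measured at 1.89, 1.33, 28.99 and 0.355 scaled CPM at 3 dpci and at 4.73, 1.48, 8.12 and 49.8 at 7 dpci, had its highest level in the sample at 7 dpci that was also highest in *nr0b2a*, *cyp7a1* and the intestine markers, whereas at 3 dpci it was highest in replicate 3 and the others in replicate 1.

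Genes most like *nr0b2b* and *oatx* over the 17 samples were sought among 8405 genes by the root mean square difference of centred log2 CPM, where 0 is an identical pattern. For *nr0b2b*, whose own values had a root mean square of 2.38 about their mean, these were *si:ch73-173p19.1* (0.69), *il11a*, an interleukin gene (0.96), *ggt1a*, a gamma-glutamyltransferase gene (1.06), and *fthl31*, of the ferritin heavy chain family (1.103). For *oatx* (2.95) they were *sult3st3*, a sulfotransferase gene (1.07), *LOC101885844* (1.38), *dao.3*, a D-amino acid oxidase gene (1.42), and *elovl2*, a fatty acid elongase gene (1.61). *elovl2* averaged 234 scaled CPM in sham and 10.6, 58.1 and 220 at 1, 3 and 7 dpci, and *il11a* averaged 0.114, 7.70, 0.522 and 0.302 in the same order. These likenesses are descriptions over samples that share groups.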

How the data were processed

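The authors trimmed the reads (cutadapt 1.16), mapped them with HISAT2 2.1.0 and deposited counts per gene made with featureCounts 1.6.0, with CPM beside them. Paired-end reads of 75 bp were made to a stated 15 M per sample with a stranded total RNA kit, and the strand setting of the counting is not stated. The submitters' processing notes name danRer10, the paper another build, and no coordinates were used. The deposited CPM are the counts divided by column totals, within 0.0005. Of the 8513 entries, whose filter is not stated, 7663 matched a reference symbol. The authors' CPM were not tested.

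The tests on counts used edgeR 4.0.16 in R 4.3.3 (filterByExpr, TMM, quasi-likelihood test, 1 fit of all 17 samples, Benjamini-Hochberg adjustment over 8412 genes, called at an adjusted p of at most 0.05). Scaled CPM are counts over TMM-scaled totals, and log2 CPM carried a prior count of 2. The SE of an edgeR log2 fold change is its absolute value over the square root of the quasi-likelihood F statistic. It is thus derived from the test and is approximate, most of all for genes with a group near 0. Alternatives were DESeq2 1.42.0 and its size factors, column totals, no filter, only the groups compared, a replicate block, the methods' thresholds (log2 fold change of 1.5, unadjusted p of at most 0.05) and each replicate left out. The test was tried on simulated data. The genes, lists, rules and tests were chosen with earlier results of these data known. Named pathway genes were, per list and direction, up to 4 of at least 1 CPM on average with the largest called change at 1 dpci, at 3 and 7 dpci the 3 with the smallest p, and a fixed few wherever in the table. 1 gene that this rule names is not reported here.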

Additional observations from a re-analysis of the deposited data

Results flagged for a closer look

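Of 19 groups of samples looked at, 5 had 1 sample far from the others, measured as its gap to the nearest sample over the range of the group. Chance alone sets apart about 1 group in 20, and groups in which most samples held 0 counts of *nr0b2b* are set apart by any single count. *nr0b2b* had a gap of 1 in replicate 1 of sham, which held 1 count, a gap of 1 in replicate 4 at 3 dpci, which held 39 counts, and a gap of 0.871 in replicate 1 at 7 dpci, which held 25. *oatx* had a gap of 0.854 in replicate 3 at 7 dpci, at 59.0 scaled CPM beside 2.79 to 10.98 in the others. *abcb11b* had a gap of 0.900 in replicate 1 at 3 dpci, at 154 scaled CPM beside 94.2 to 100.1.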

How the results depend on the processing

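Of the pathway genes, the 24 that fell at 1 dpci became 15 with column totals, 10 with the 1 dpci samples summed in 2 pairs (an alternative chosen after seeing the data) and 16 to 27 with each replicate left out. The 8 that rose became 23, 4 and 5 to 8 (5 without 1 dpci replicate 2), and 5 at the methods' thresholds. At those thresholds 29 fell, and the highest count that fell over all alternatives was 31. DESeq2 called 39 in either direction at 1 dpci, where edgeR called 32. At 3 dpci the count of 0 became 2 with DESeq2, 3 at the methods' thresholds and 0 to 1 with each replicate left out (1 without sham replicate 5), and at 7 dpci it became 2 at the methods' thresholds. Summing also left fewer samples at 1 dpci. Shares of all genes are not given for these alternatives, so their counts are not set beside all genes. The cause of these changes was not tested.

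With the replicate number as a block, 23 fell and 7 rose at 1 dpci and 0 were called at 3 and 7 dpci. Of 24 correlations between same-numbered samples (-0.26 to 0.42) only 5 were above 0.1, so the numbers were not taken to pair the samples. No call for the 5 genes changed under the block.

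Of the 5 genes, *abcc2* at 1 dpci moved to -0.06 with column totals, and these log2 fold changes turned their sign without any passing the test (the lowest adjusted p over all alternatives was 0.18, for *abcc2* at 7 dpci with DESeq2). For *nr0b2a* at 3 dpci against sham they were 0.087 with column totals, 0.22 with the replicate block and -1.33 to 0.42 with each replicate left out. For *nr0b2a* at 7 dpci against sham the leave-one-out range was -0.76 to 0.72, and -3.33 without the 2 libraries whose column headings lack a letter that the others have (a further alternative chosen after seeing the data). Against 3 dpci *nr0b2a* at 7 dpci gave -0.10 with the replicate block, -0.59 to 1.46 with each replicate left out and -3.15 without those 2 libraries, which hold its highest values. *nr0b2b* gave -1.61 to 5.96 at 3 dpci against sham and -2.76 to 5.73 at 7 against 3 dpci with each replicate left out, and 0.63 at 7 against 3 dpci without those 2 libraries. *abcb11b* at 3 dpci gave -0.12 to 0.18. *nr0b2b* could not be fitted at 3 and 7 dpci with only the 2 groups compared, since it failed the filter there.

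Depth limits *nr0b2b* and *oatx* most: absence at 0 counts is known only down to the floor of 3 counts.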
